A study of Mus musculus with 66 samples.

Results

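The 18 strains described here were the BXD strains at the ends of the saline distribution of Fkbp5, a stress hormone responsive gene. They were chosen by ranking the 27 saline BXD arrays on the Fkbp5 probe set with the highest mean over all 66 arrays of the study. The 9 highest strains were set against the 9 lowest, which left 9 strains between them. BXD strains are recombinant inbred mice bred from C57BL6/J and DBA/2J, and each strain is a fixed mosaic of those 2 genomes. Every array held RNA of medial prefrontal cortex pooled from 4 to 5 male mice aged 10 to 12 weeks. The mice of one array received saline and those of the other array of the strain received ethanol at 1.8 g/kg, both by intraperitoneal injection. All mice of both treatments, and of both ends of the ranking, were also restrained for 15 minutes in a tube, placed in a light-dark chamber for 10 minutes and killed 4 hours after the injection. The study holds no unrestrained mice among the arrays used here, and a strain had 1 array per treatment, so a strain and the pool of mice that stood for it cannot be told apart. The saline arrays chose the strains. Differences and correlations on them are therefore given as a description with no test, and tests were run only on the ethanol arrays of the same strains, which came from other pools of mice.

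Fkbp5 encodes FKBP51, an immunophilin that joins the Hsp90 complex around the glucocorticoid receptor and lowers its affinity for hormone. When corticosterone, the stress hormone of mice, binds the receptor, the receptor moves to the nucleus and switches on target genes that include Fkbp5 itself, which closes a short feedback loop. Restraint raises corticosterone, and in rodent brain Fkbp5 RNA is known to rise in the hours after stress or a glucocorticoid injection. Other textbook targets are Tsc22d3 (GILZ), Sgk1, Per1 and the metallothioneins. Mfsd2a was also on the list of target genes described below, which was chosen with results of these arrays known.

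The promoter window of Fkbp5 is shown with those of 2 target genes, chosen because they hold the known motif of the receptor or one arm of it. The motif is the palindrome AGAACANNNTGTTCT, and AGAACA is one arm. The windows run from 250 bases before to 50 bases after the transcription start, 5′ to 3′ on the strand of the gene, and come from RefSeq (GRCm38.p6). Capitals mark AGAACA or its reverse complement, with the whole palindrome in capitals where it occurs. Fkbp5 has its window at chr17:28486100-28486399 on the minus strand, Sgk1 at chr10:21993640-21993939 on the plus strand, and Sult1a1 at chr7:126676369-126676668 on the minus strand.
Fkbp5: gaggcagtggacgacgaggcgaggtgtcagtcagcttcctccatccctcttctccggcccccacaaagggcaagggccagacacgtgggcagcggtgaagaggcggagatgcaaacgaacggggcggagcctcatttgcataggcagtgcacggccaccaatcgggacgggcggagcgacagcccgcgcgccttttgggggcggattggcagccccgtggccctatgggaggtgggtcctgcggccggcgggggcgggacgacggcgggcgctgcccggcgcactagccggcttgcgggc
Sgk1: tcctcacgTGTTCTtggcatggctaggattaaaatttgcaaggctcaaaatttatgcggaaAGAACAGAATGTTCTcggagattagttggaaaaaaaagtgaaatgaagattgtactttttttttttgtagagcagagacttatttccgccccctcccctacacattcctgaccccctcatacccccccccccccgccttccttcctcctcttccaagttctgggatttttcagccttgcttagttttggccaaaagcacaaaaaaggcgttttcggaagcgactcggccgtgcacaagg
Sult1a1: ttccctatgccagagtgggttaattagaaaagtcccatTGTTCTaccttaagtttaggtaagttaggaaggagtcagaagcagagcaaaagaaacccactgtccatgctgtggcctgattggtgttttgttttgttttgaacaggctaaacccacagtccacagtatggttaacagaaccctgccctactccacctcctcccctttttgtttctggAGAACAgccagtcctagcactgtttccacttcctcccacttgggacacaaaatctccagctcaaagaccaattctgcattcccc
The Fkbp5 window held neither motif. Sgk1 has 6 windows in the table, and the one shown is the only one of them with the palindrome, first base at position -189 from the start, and that of Sult1a1 held AGAACA at positions -212 and -34. Searched on both strands, AGAACA occurred in 6233 of 32851 promoter windows (19%) and the palindrome in 3 (0.00913%), those of Sgk1, Acnat2 and Gm35041. The looser core ACANNNTGT, which is contained in the palindrome, occurred in 6.85% of all windows. Of the 37 glucocorticoid receptor target genes measured here, 30 had a window in the RefSeq table, 47 windows in all. AGAACA was in 8 of the 47 (17%), the palindrome in 1 and the core in 9 (19.1%). The 7 genes that passed on the ethanol slope, described further on, had 9 windows, of 5 genes, with AGAACA in 0 and the core in 1. A match is only a run of letters, and these windows are short.

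On the saline arrays the log2 level of Fkbp5 was 8.38, 8.45 and 8.63 (lowest, median and highest) in the 9 high strains, 8.18, 8.27 and 8.37 in the 9 strains between, and 7.73, 8.09 and 8.11 in the 9 low strains. The high strains were, in falling order, BXD31, BXD23, BXD12, BXD33, BXD42, BXD06, BXD05, BXD34 and BXD02. The low strains were BXD09, BXD16, BXD01, BXD08, BXD21, BXD38, BXD11, BXD14 and BXD19, again in falling order. The steps at the edges were small: BXD02 at 8.381 was the last strain taken as high and BXD32 at 8.372 the first left out, and BXD09 at 8.115 was taken as low while BXD39 at 8.177 was not. The group means were 8.48 ± 0.10 and 8.04 ± 0.12 (SD, n = 9 each), 0.44 apart. BXD19 lay well under every other strain. The 3 saline arrays of C57BL6/J read 8.16, 8.07 and 8.21, and those of DBA/2J 8.11, 8.04 and 8.05. All 9 high strains thus lay above all 6 saline arrays of the strains they descend from, while the low strains lay around the DBA/2J values. This was not particular to the high strains. Those between, from BXD32 (8.372) down to BXD22 (8.216), also lay above the highest of the 6 (8.214). The same values chose the strains, so this is a description only.

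The question for the ethanol arrays was whether the order came back in a second pool of each strain. That pool differed in treatment too. A strain level that varies from pool to pool and a response to ethanol that differs between strains therefore cannot be told apart here. There Fkbp5 was 8.20, 8.45 and 8.96 (lowest, median, highest) in the high strains and 8.12, 8.29 and 8.96 in the low strains, and the groups overlapped over nearly their whole range. The means were 8.49 ± 0.23 and 8.37 ± 0.25 (SD, n = 9 each), a difference of 0.12 (SE 0.10, 95% confidence interval -0.09 to 0.33). It did not pass in limma (adjusted p = 0.805) or in a two-sided exact permutation test over the 18 strains (p = 0.312). BXD09, a low strain on saline, had the highest ethanol level of all 27 strains (8.96 against 8.11). Without BXD09 the difference was 0.19 (exact permutation p = 0.0462, limma adjusted p = 0.563). It was left out for its ethanol level, so these p values do not test the strain difference. BXD34, a high strain with an ethanol level of 8.96, was kept. Leaving out each strain in turn, the difference ran from 0.06 to 0.19. Over all 27 strains the saline and ethanol levels had a Pearson correlation of 0.196 (permutation p = 0.329) and a Spearman correlation of 0.277 (permutation p = 0.161). Without BXD31 and BXD19, the strains farthest from the saline median, Pearson's r was 0.102 (permutation p = 0.628). These are 2 measures of one relation and neither passed before adjustment. Of the 9 strains ranked highest on saline 5 were among the 9 highest after ethanol, and 5 of the 9 lowest stayed among the lowest. From the high to the low end 2 moved, and 1 from the low to the high end. These counts restate the relation that did not pass and were not tested themselves.

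**Figure D1:**
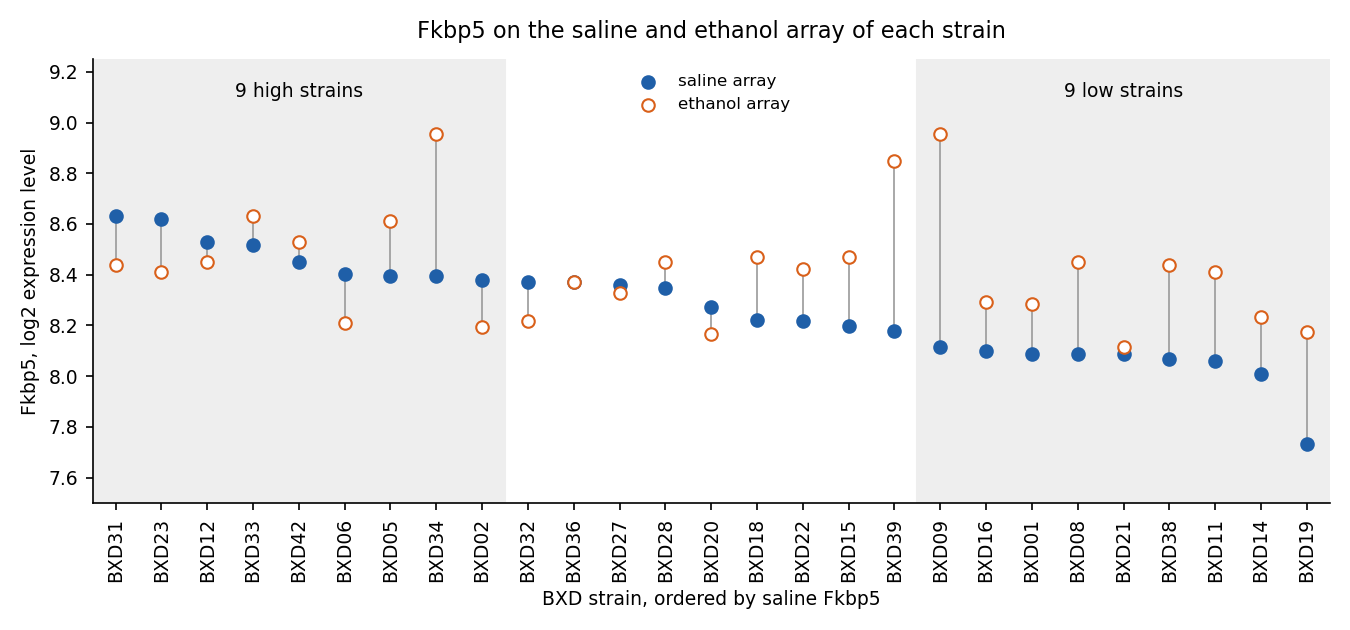
Fkbp5 in each of the 27 BXD strains, ordered by the saline level, as log2 expression level (vertical axis); filled points are saline arrays, open points ethanol arrays of the same strain, and grey bands mark the 9 high and 9 low strains. The saline points fall from 8.63 to 7.73 by construction, while the ethanol points of both bands spread from about 8.1 to nearly 9.0, with BXD34, BXD39 and BXD09 at the top.

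All 9 low strains read higher on the ethanol array than on the saline array (by 0.03, 0.35 and 0.84, lowest, median and highest). In the high strains 4 read higher and 5 lower (-0.21, -0.08 and 0.56). The saline level enters both the choice of strains and these differences, so they were not tested. The ethanol arrays of C57BL6/J read 8.55, 8.62 and 8.38, and those of DBA/2J 8.35, 8.23 and 8.46, each above all 3 saline arrays of its own strain.

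The table held 3 Fkbp5 probe sets, and 2 of them passed the filter on dim probe sets. The brighter, used for the ranking, had a mean of 8.33 and the other a mean of 7.57. Across arrays they correlated at 0.704 on saline and at 0.901 on ethanol. The second probe set was also higher in the high strains on saline (mean 7.62 against 7.38), and after ethanol read 7.70 against 7.61. Ranked by it, 6 of 9 high and 6 of 9 low strains were kept. The ethanol difference of the brighter probe set then turned to -0.10 (limma adjusted p = 0.70), and the second probe set's own correlation between saline and ethanol was -0.176. With the strains ranked by the brighter probe set, both probe sets thus read higher in the high strains after ethanol. The direction depended on which probe set ranked the strains on saline.

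Among all other genes, 0 of 13195 (0.0%) had saline levels that did not overlap between the high and low strains. The genes closest to Fkbp5 were sought by correlation over the 27 saline arrays, as a description. A correlation of at least 0.5 was reached by 134 genes (1.02%) and one of at most -0.5 by 68 (0.515%). Wipf3, a regulator of actin assembly, was closest. Its saline level was 9.88, 10.10 and 10.29 (lowest, median, highest) in the high and 9.59, 9.79 and 10.03 in the low strains, with r = 0.81. The groups overlapped only in part, and the mean difference was 0.30. On the ethanol arrays Wipf3 correlated at 0.40 and differed by 0.16 (SE 0.06, limma adjusted p = 0.678). Mfsd2a, the transporter that carries omega-3 lipids across the blood-brain barrier, followed with r = 0.75. It read 7.60, 7.79 and 8.12 in the high and 7.30, 7.64 and 7.85 in the low strains on saline, 0.25 apart, and only 0.06 apart after ethanol (SE 0.07, limma adjusted p = 0.88), with r = 0.45 there.

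Next came Lfng, a Notch-modifying glycosyltransferase (r = 0.73), Rin2, an exchange factor of Rab5 (0.69), Gm19439 (0.69), Brms1 (0.68), Atg4c, an autophagy protease (0.67), and Eva1a, Wdr46, Txndc15 and Map2k3 (0.66 for the first 3). The last of the 12 was Tsc22d3, which mediates anti-inflammatory actions of glucocorticoids. Tsc22d3 read 9.20, 9.51 and 9.77 in the high strains and 8.73, 8.92 and 9.44 in the low strains on saline, r = 0.65. Its saline means differed by 0.46, the most of any of the 12 apart from Gm19439 (0.56). On the ethanol arrays the same strains read 9.17, 9.40 and 9.70 against 9.19, 9.27 and 10.04, a difference of -0.05 (SE 0.10, limma adjusted p = 0.917). BXD09 gave the value of 10.04. Array by array, however, Tsc22d3 still correlated with Fkbp5 after ethanol (r = 0.48). Of the 12 genes, 10 correlated positively with Fkbp5 on the ethanol arrays, where 53.0% of all genes did, and 8 had a positive high minus low difference (all genes 50.5%). None of the 12 passed in limma there, and 1, Wipf3, had an unadjusted p below 0.05.

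**Figure D2:**
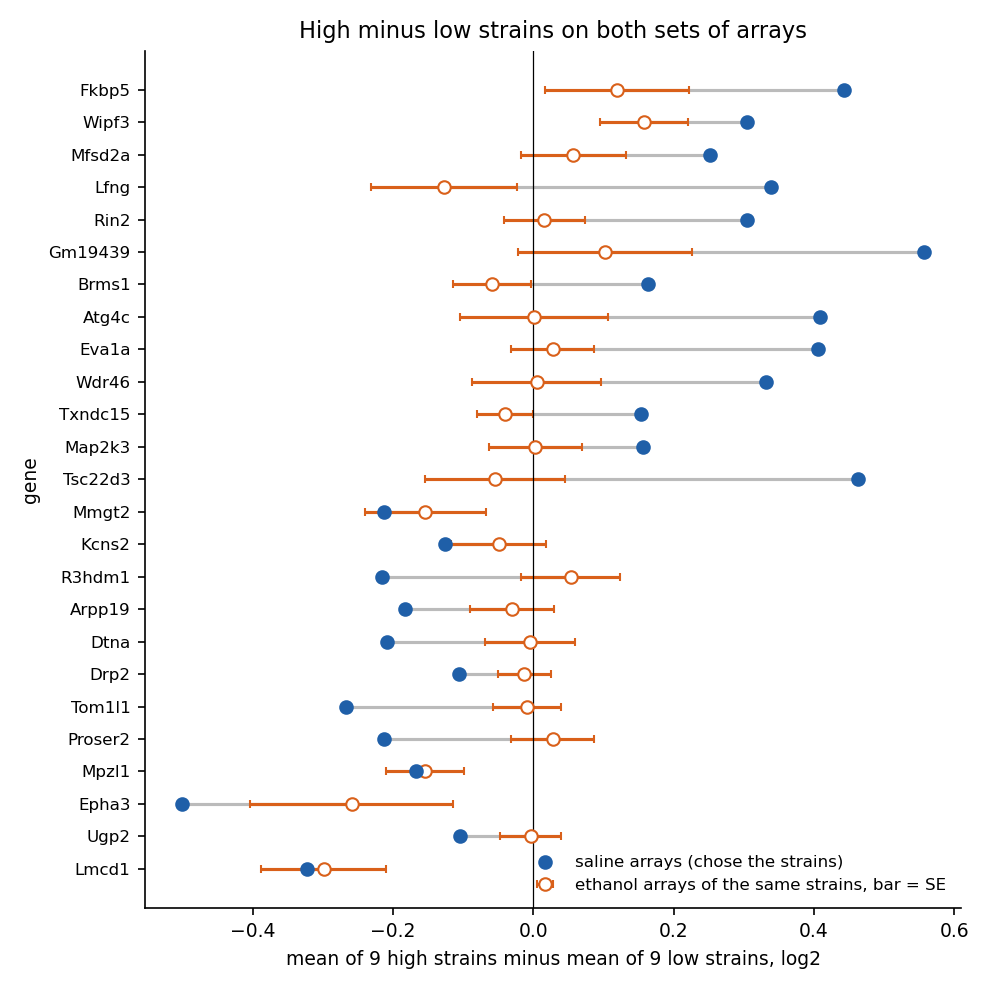
Mean of the 9 high strains minus mean of the 9 low strains, in log2 (horizontal axis), for Fkbp5 and the 12 genes with the highest and the 12 with the lowest saline correlation with Fkbp5 (rows); filled points are saline arrays, open points ethanol arrays of the same strains with their SE. Saline differences were picked to be large; on the ethanol arrays most lie within about 0.1 of 0, and Wipf3 (0.16), Lmcd1 (-0.30), Epha3 (-0.26), Mpzl1 (-0.15) and Mmgt2 (-0.15) lie farther out on the same side as on saline, and Lfng (-0.13, against 0.34 on saline) on the opposite side.

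At the other end Lmcd1, a transcriptional co-repressor of muscle and heart, had the lowest saline correlation (-0.72). It read 5.99, 6.16 and 6.29 in the high strains and 6.15, 6.41 and 7.01 in the low strains. On the ethanol arrays it was again lower in the high strains, 5.81, 6.06 and 6.48 against 6.14, 6.42 and 6.79, a difference of -0.30 (SE 0.09, limma adjusted p = 0.678). Its saline and ethanol levels correlated at 0.73 over the 27 strains, while its correlation with the array's own Fkbp5 after ethanol was -0.28. Epha3, an ephrin receptor, had the same form (saline r = -0.62, strain correlation 0.72) and differed by -0.50 on saline and -0.26 (SE 0.14) after ethanol. Mpzl1, a cell surface glycoprotein, correlated at -0.61 on saline and -0.45 on ethanol, and differed by -0.17 and -0.15. The other 9 were Ugp2, Proser2, Tom1l1, Drp2, Dtna, Arpp19, R3hdm1, Kcns2 and Mmgt2. Of the 12, 9 correlated negatively on the ethanol arrays (all genes 47.0%), and none passed in limma.

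Glucocorticoid receptor target genes were described as a list of 40, of which 37 were measured. On the saline arrays 31 of 37 (83.8%) correlated positively with Fkbp5, against 51.8% of all genes, with a median of 0.31 (all genes 0.01). On the ethanol arrays 30 of 37 (81.1%) did, against 53.0%, with a median of 0.35 (all genes 0.02). On both, 25 of 37 (67.6%) were positive, against 26.4% of all genes. The list was chosen with results of these arrays known, so the counts describe it and carry no test. Correlations of at least 0.5 were held by 8 of 37 on saline and by 8 of 37 on ethanol, where 1.02% and 1.37% of all genes reached that value. The mean level of the 37 genes on an array had a correlation with Fkbp5 of 0.72 on saline and 0.73 on ethanol. By the second probe set these were 0.60 and 0.64, and 31 and 29 of the 37 genes were positive.

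On the ethanol side 3 arrays stood apart in Fkbp5. Those of BXD09 (8.96), BXD34 (8.96) and BXD39 (8.85) stood above the other 24, the highest of which read 8.63. Without these 3, 27 of 37 target genes (73.0%) correlated positively, against 48.7% of all genes, with a median r of 0.14 (all genes -0.01), and the mean of the list had r = 0.43. On saline, without BXD31 and BXD19, 31 of 37 stayed positive with a median of 0.27.

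**Figure D3:**
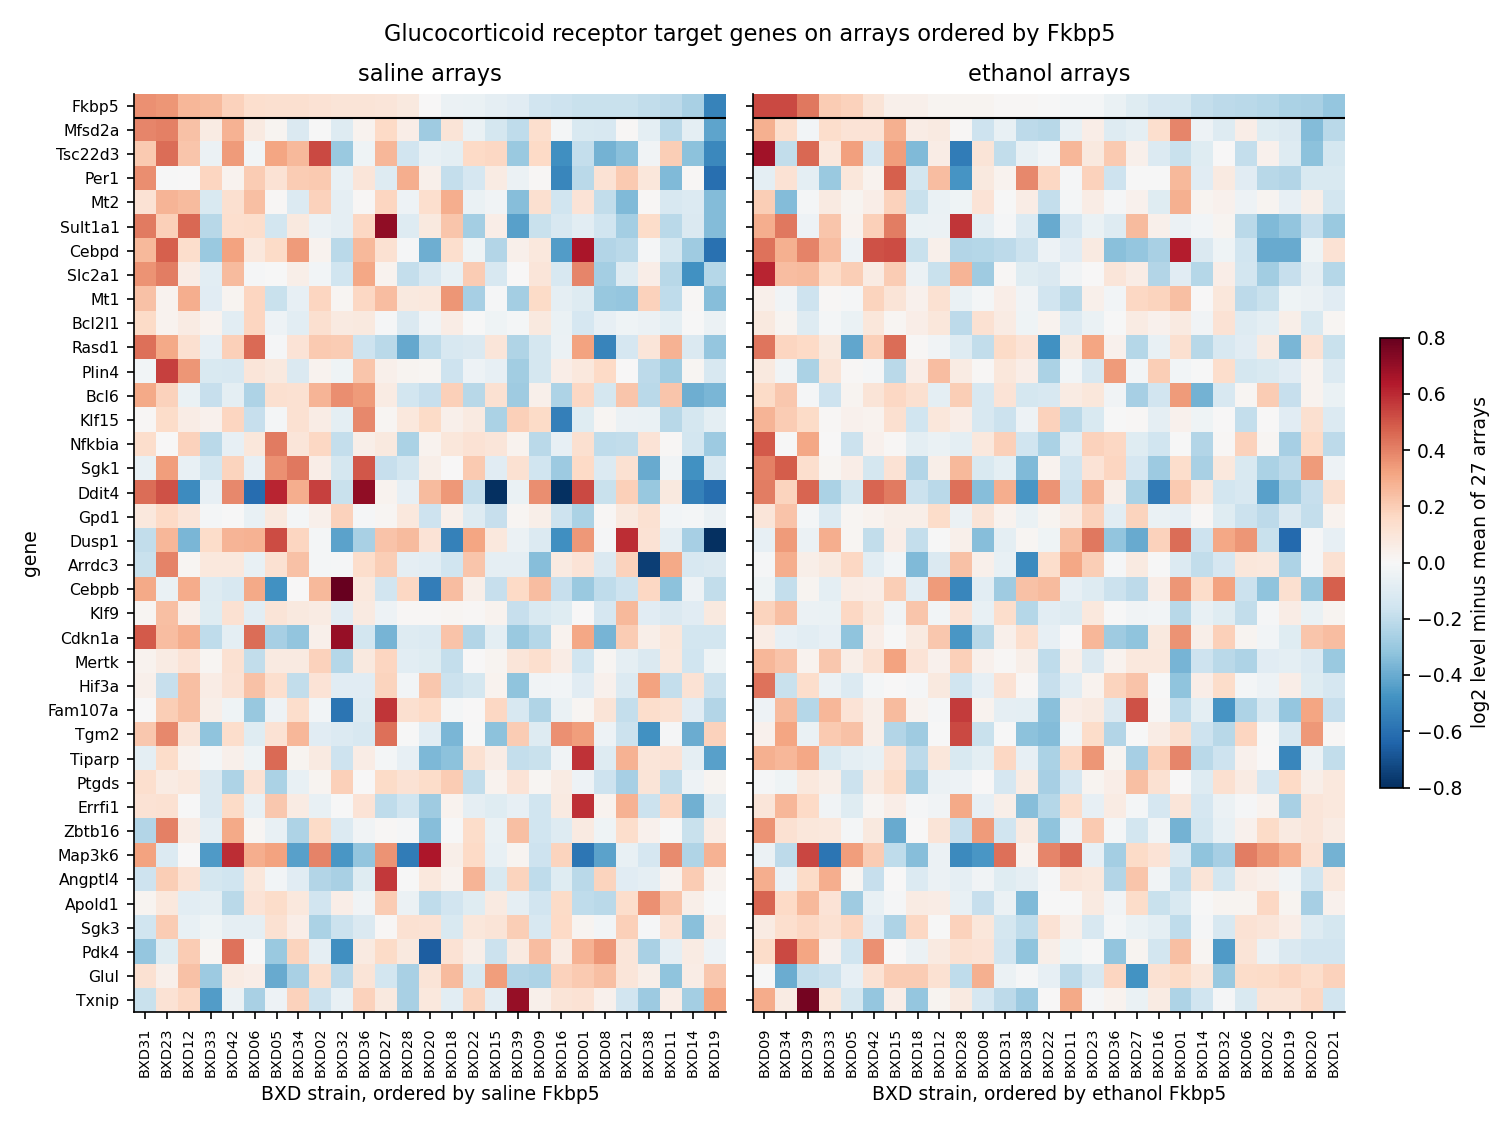
The 37 glucocorticoid receptor target genes (rows, ordered by saline correlation with Fkbp5, which is the top row) on the 27 saline arrays (left) and the 27 ethanol arrays (right), each panel ordered by its own Fkbp5 level. Colour is the log2 level minus the mean of the panel's 27 arrays, and the scale stops at 0.8 in both directions. Rows near the top turn from red to blue from left to right on saline; after ethanol the red is densest in the first 3 columns, BXD09, BXD34 and BXD39.

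Target genes with a correlation of at least 0.5 on both sets of arrays were Slc2a1, Sult1a1 and Cebpd. Slc2a1, the glucose transporter GLUT1 of the blood-brain barrier, had r = 0.52 and 0.77 on saline and ethanol. Its saline level was 9.61, 9.74 and 10.10 in the high strains and 9.21, 9.57 and 10.09 in the low strains, and its ethanol level 9.49, 9.78 and 10.01 against 9.49, 9.59 and 10.38. The groups overlapped on both, most of all after ethanol, where BXD09 was again the highest. Sult1a1, a phenol sulfotransferase, correlated at 0.56 on both, and the transcription factor Cebpd at 0.53 and 0.50. Without BXD31 and BXD19 the saline correlations of the 3 were 0.42, 0.45 and 0.37, all under 0.5. Without BXD09, BXD34 and BXD39 the ethanol correlations of Slc2a1 and Sult1a1 were 0.59 and 0.51, and that of Cebpd 0.28. Sult1a1 differed by 0.26 on saline and by 0.09 (SE 0.09) after ethanol.

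Per1 and the metallothioneins followed Fkbp5 on saline but hardly on ethanol. Per1, a clock gene with a glucocorticoid response element, correlated at 0.61 and 0.11, Mt2 at 0.58 and -0.06, and Mt1 at 0.50 and 0.01. Without BXD31 and BXD19 the saline values were 0.38 for Per1, 0.49 for Mt2 and 0.35 for Mt1. Without BXD09, BXD34 and BXD39 the ethanol values were 0.21, 0.14 and 0.20, so the gap was smaller once the farthest arrays were left out. Per1 read 7.88, 8.05 and 8.25 in the high and 7.28, 7.89 and 8.09 in the low strains on saline, and 7.58, 7.90 and 8.12 against 7.64, 7.86 and 8.26 after ethanol. The reverse held for Pdk4, which restrains pyruvate dehydrogenase (-0.13 and 0.57), and Mertk, a receptor for the uptake of dying cells (0.26 and 0.68, limma adjusted p of the ethanol slope 0.0657). Without the 3 highest ethanol arrays Pdk4 correlated at 0.26 and Mertk at 0.69. The difference between the saline and ethanol correlation of a gene was not tested. Sgk1, a kinase whose promoter window is printed above, correlated at 0.38 and 0.51, and at 0.08 on ethanol without the 3 highest arrays. It read 8.67, 8.87 and 9.24 in the high and 8.33, 8.69 and 8.98 in the low strains on saline. The Krüppel-like factors Klf9 (0.28 and 0.48) and Klf15 (0.39 and 0.55), the mTOR inhibitor Ddit4 (0.38 and 0.42), the NF-kappaB inhibitor Nfkbia (0.38 and 0.45) and the small GTPase Rasd1 (0.44 and 0.41) were positive on both. Without the 3 highest ethanol arrays these ethanol correlations were 0.32 for Klf9, 0.14 for Klf15, 0.20 for Ddit4, 0.07 for Nfkbia and 0.17 for Rasd1. Glul, glutamine synthetase, was negative on both (-0.19 and -0.40).

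The same list was then read as a difference between the strain groups. On saline 31 of 37 target genes were higher in the high strains (all genes 50.3%), by a median of 0.13. On the ethanol arrays 24 of 37 were (64.9%, all genes 50.5%), by a median of 0.06, and 0 of 37 passed in limma, with 1 higher (Tgm2, 0.19) and 1 lower (Cebpb, -0.21) before adjustment at 0.05. The 37 genes averaged 8.23, 8.41 and 8.52 (lowest, median, highest) in the high and 8.15, 8.29 and 8.40 in the low strains on saline. After ethanol they averaged 8.30, 8.38 and 8.47 against 8.24, 8.30 and 8.56, where BXD09 was the highest of all 27 strains. Between the saline and the ethanol array of a strain the list mean correlated at 0.27.

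**Figure D4:**
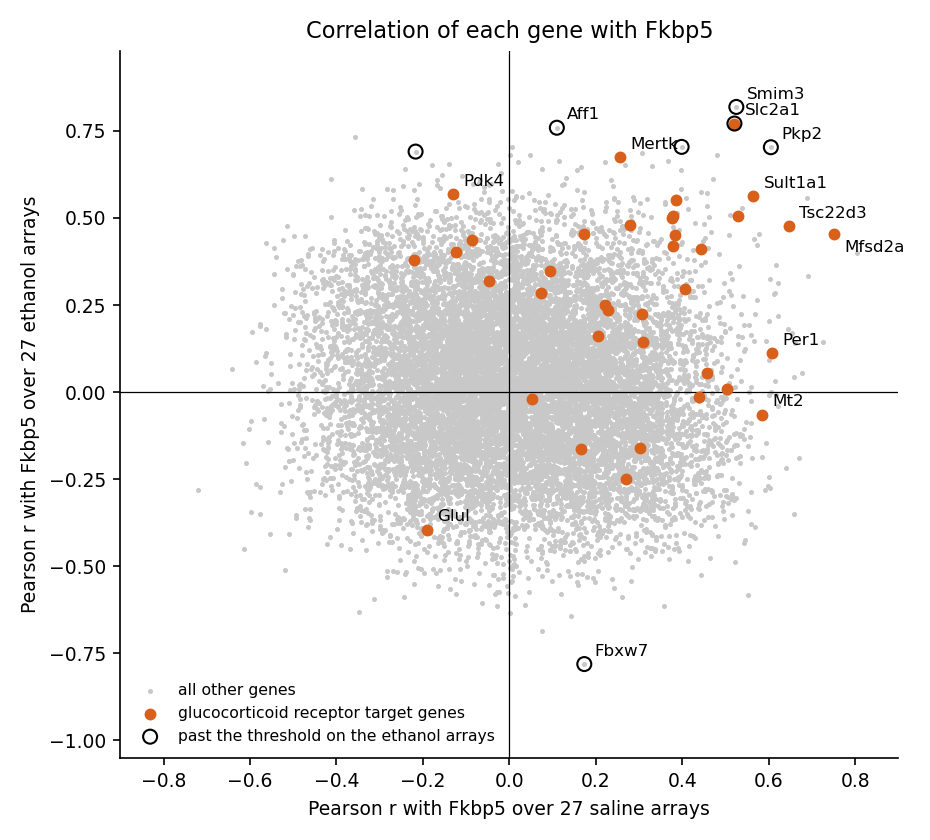
Pearson correlation with Fkbp5 over the 27 saline arrays (horizontal axis) and the 27 ethanol arrays (vertical axis) for each of 13195 genes (grey); orange points are the 37 glucocorticoid receptor target genes, and black rings the 7 genes that passed on the ethanol slope. The orange points lie mainly at the upper right (25 of 37 positive on both axes), and Fbxw7 is the ringed gene at the bottom.

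Which genes follow Fkbp5 from pool to pool was tested on the 27 ethanol arrays with Fkbp5 as a continuous term in limma. Of 13195 genes 7 passed at an adjusted p below 0.05, 6 with a positive slope (0.0455%) and 1 with a negative one (0.00758%). At an unadjusted p below 0.05 there were 743 positive (5.63%) and 422 negative (3.2%) genes, among them 18 positive and 1 negative, Glul, of the 37 target genes. The 7 genes did not pass without BXD09, BXD34 and BXD39: over the other 24 arrays 0 passed in limma, and the smallest adjusted p was 0.9997. There 451 of 13195 genes had an unadjusted p below 0.05, a share under 0.05.

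Smim3, a small membrane protein gene, had the closest tie. Its ethanol level ranged from 6.72 to 7.54 with a median of 7.09, and BXD09 (7.53), BXD34 (7.54) and BXD39 (7.44) were its 3 highest arrays, as they were for Fkbp5. Its slope was 0.79 log2 per log2 of Fkbp5 (SE 0.11, r = 0.82, limma adjusted p = 0.000916), and 0.65 (SE 0.19) without the 3. On saline r was 0.53, and the strain groups read 6.55, 7.12 and 7.40 against 6.41, 6.86 and 7.01. The slope of Slc2a1 was 0.72 (SE 0.12, limma adjusted p = 0.00382), and 0.66 (SE 0.19) without the 3. It is the one target gene on the list that passed. Pkp2, plakophilin 2 of desmosomes, rose by 1.15 per log2 of Fkbp5 (SE 0.22, r = 0.70, limma adjusted p = 0.026), and had the same slope of 1.15 (SE 0.38) without the 3, with r = 0.61 on saline, and differed between high and low strains by 0.40 on saline and 0.32 (SE 0.16) after ethanol. Vegfd, a growth factor of lymphatic vessels, had a slope of 0.92 (SE 0.17) and r = 0.70, a slope of 1.17 (SE 0.30) without the 3, and r = 0.40 on saline. After ethanol it read 5.06, 5.36 and 5.59 in the high and 4.52, 4.98 and 5.67 in the low strains, 0.37 apart (SE 0.12, limma adjusted p = 0.678).

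The remaining 3 were not alike on the 2 sets of arrays. Aff1, a scaffold of the super elongation complex, had r = 0.76 on ethanol and 0.11 on saline. Its slope fell from 0.95 (SE 0.16) to 0.48 (SE 0.24) without the 3 arrays. Postn, the matrix protein periostin, had r = 0.69 and -0.22, with a slope of 0.77 (SE 0.15) and of 0.75 (SE 0.27) without the 3. Fbxw7, which selects substrates of a ubiquitin ligase, had r = -0.78 and 0.17, a slope of -0.61 (SE 0.10, limma adjusted p = 0.00382) and one of -0.53 (SE 0.17) without the 3. For Fbxw7 the array of BXD34 read lowest (10.55 against a median of 11.06). In all, 8 genes (0.0606%) correlated at 0.5 or above on both sets: Smim3, Slc2a1, Pkp2, Sult1a1, Gm19439, Cavin2 of caveolae, the lipase Pnpla2 and Cebpd. The 2 arrays of each set farthest from the median of Fkbp5 were then left out. Only Gm19439 of the 8 stayed at 0.5 or above on both (0.59 and 0.50), and the other 7 were under 0.5 on saline. Without BXD09, BXD34 and BXD39 the ethanol correlation of Gm19439 was 0.44, so it too fell under 0.5.

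**Figure D5:**
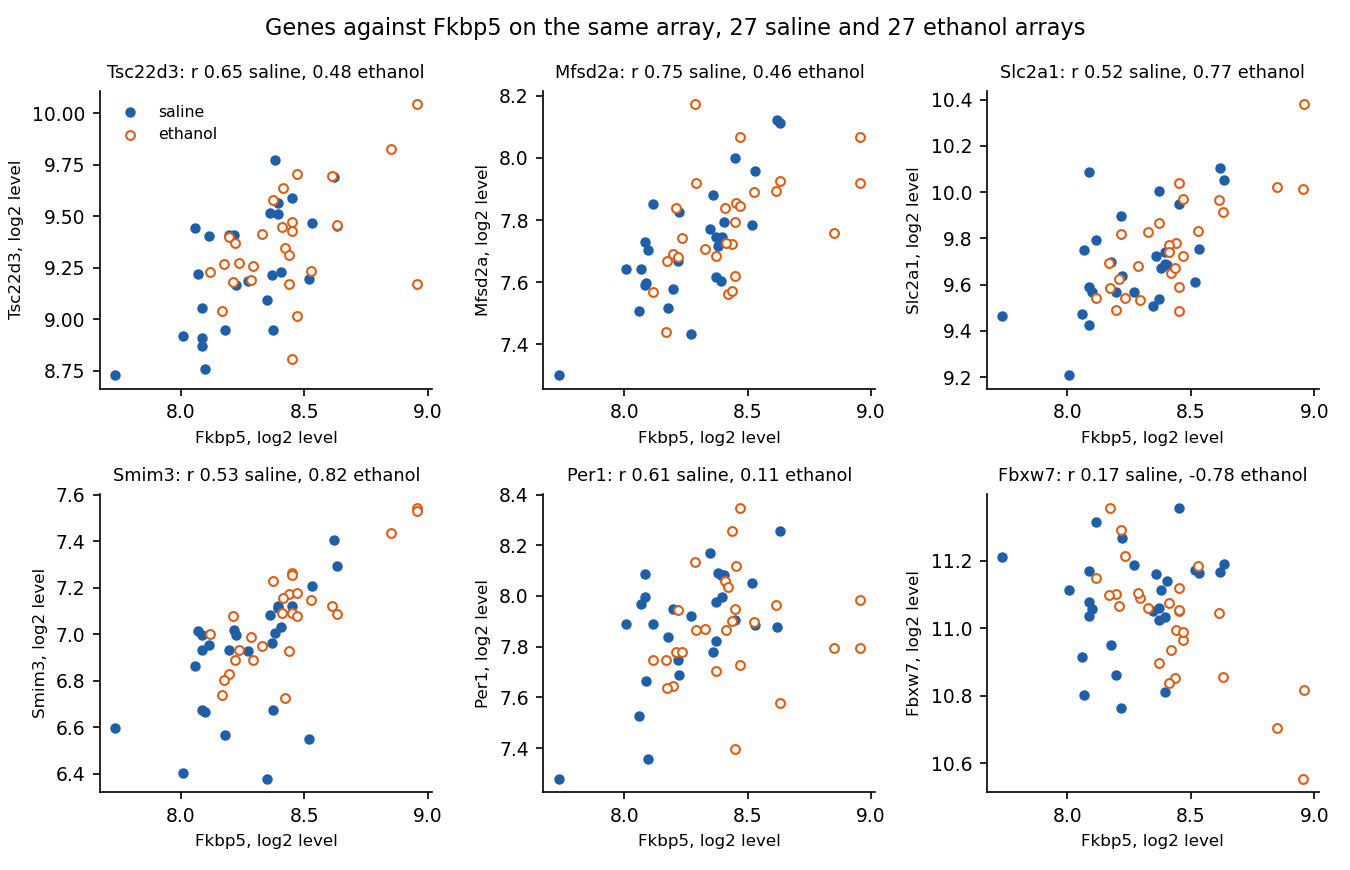
Log2 level of 6 genes (vertical axes) against the log2 level of Fkbp5 on the same array (horizontal axes), for 27 saline arrays (filled) and 27 ethanol arrays (open). Slc2a1 and Smim3 rise with Fkbp5 on both sets, Per1 mainly on saline (r = 0.61 against 0.11), and Fbxw7 falls on ethanol only in r (-0.78 against 0.17); 3 ethanol arrays stand apart on the right.

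Between the high and low strains on the ethanol arrays, 0 of 13196 genes passed in limma (0.0%), with 513 higher (3.89%) and 432 lower (3.27%) at an unadjusted p below 0.05, and 0 genes (0.0%) had groups that did not overlap. The smallest p belonged to Eif2ak2, the interferon-induced kinase PKR. It read 5.65, 5.78 and 5.87 in the high and 5.46, 5.49 and 5.71 in the low strains, 0.25 apart (SE 0.04, adjusted p = 0.0912). It passed without BXD09 (adjusted p = 0.0143), without BXD33 (0.0442), and with the 9 strains between kept in the fit (0.00929). In 33 other alternatives it did not pass, and the adjusted p of limma reached 0.869. Leaving out 1 strain at a time gave Eif2ak2 adjusted p values from 0.0143 to 0.305. On the saline arrays its means were alike, 5.58 and 5.58. The other 7 of the 8 smallest p, all at an adjusted p of 0.678, were Ankrd63 (0.28) and the mitotic protein gene Zfp207 (0.25), higher in the high strains, and Fgfbp1 (-0.38), Lcat (-0.32), Mblac1 (-0.28), Fbln5 (-0.26) and Fmod (-0.23), lower. Fbln5 and Fmod encode fibulin 5 and fibromodulin of the extracellular matrix.

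The receptor, its chaperones and the relatives of Fkbp5 were described in the same way. Of 20 listed genes for the receptor, Hsp90 and co-chaperones 16 were measured. Positive correlations were held by 9 on saline and 9 on ethanol (56.2% each, all genes 51.8% and 53.0%). On either test of the ethanol arrays 0 passed. Nr3c1, the glucocorticoid receptor, read 9.35, 9.56 and 9.77 in the high and 9.42, 9.77 and 9.88 in the low strains on saline (r = -0.45), and after ethanol 9.45, 9.60 and 9.80 against 9.22, 9.52 and 9.71 (r = -0.06). The sign of its strain difference turned, from -0.14 to 0.13 (SE 0.06, limma adjusted p = 0.692). Fkbp4, the paralog that promotes receptor transport, correlated at 0.41 and -0.32. Ncoa1, a co-activator, differed by 0.20 after ethanol (SE 0.06, limma adjusted p = 0.678) and by -0.05 on saline. Of the 13 other FKBP family genes measured, 9 correlated positively on saline (69.2%) and 7 on ethanol (53.8%), and 0 passed. Of 11 measured stress neuropeptide genes, 6 (54.5%) and 2 (18.2%) correlated positively.

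Neural activity and clock genes were counted next. Immediate early genes are those that neurons switch on within minutes of firing. Of 26, 19 correlated positively with Fkbp5 on saline (73.1%, all genes 51.8%) and 7 on ethanol (26.9%, all genes 53.0%). Without BXD31 and BXD19 the saline count was 13, and without BXD09, BXD34 and BXD39 the ethanol count was 12, so the counts were close once the farthest arrays were left out. Of 18 clock genes 11 (61.1%) and 14 (77.8%) were positive. After ethanol 15 of 18 were higher in the high strains (83.3%, all genes 50.5%), and 0 passed. Per2 was among the largest, at an unadjusted p of 0.028 in limma. The 10 measured genes nearest Fkbp5 on chromosome 17 had saline correlations that ran from -0.25 (Tead3) to 0.32 (Lhfpl5), and 0 passed on either test of the ethanol arrays. Glo1, a gene of chromosome 17 whose copy number is known to vary among inbred strains (r = 0.91 between the saline and ethanol arrays of a strain), had r = 0.05 and 0.20 with Fkbp5. Fkbp5 itself had 0.196 by the same measure of saline against ethanol arrays, near the median of 0.188 over all other genes.

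Markers of the other cell types that a cortical dissection can hold were read beside these results. In pooled tissue fewer cells of a type and less RNA per cell cannot be told apart. Meningeal and fibroblast markers ran against the groups: 11 of 12 were lower in the high strains on saline (all genes 49.7%) and 11 of 12 after ethanol (all genes 49.5%; 6 at an unadjusted p below 0.05, 0 passed). Their mean was 7.09 to 7.43 in the high and 7.21 to 7.66 in the low strains on saline, and 7.13 to 7.39 against 7.22 to 7.64 after ethanol. Col3a1, a fibrillar collagen of fibroblasts, differed most on the ethanol arrays (-0.40, SE 0.17), followed by Igfbp2 (-0.26, SE 0.09). With this mean as a covariate the ethanol difference of Fkbp5 was 0.05, and its part in the other results was not tested one by one. Of 16 myelin markers 12 correlated positively with Fkbp5 on saline (75.0%, all genes 51.8%) and 0 on ethanol (all genes 53.0%). Without the 3 highest arrays the ethanol count was also 0 (all genes 48.7%). The mean of these 16 had r = 0.14 and -0.42, and with it as a covariate 4 genes passed on the slope, Aff1, Fbxw7, Slc2a1 and Smim3.

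The other marker lists are given by their counts of positive correlations. Over all genes the share was 51.8% on saline and 53.0% on ethanol. Endothelial and pericyte genes correlated positively in 6 and 7 of 18, on saline and ethanol, astrocyte genes in 5 and 9 of 15, microglial genes in 6 and 8 of 13, striatal genes in 2 and 5 of 9, excitatory neuron genes in 8 and 8 of 11, and inhibitory neuron genes in 7 and 9 of 12. Choroid plexus (0 and 0) and blood cells (2 and 1) each had only 2 genes above the filter, of 8 listed. The mean of the excitatory neuron markers lay between 9.46 and 9.74 on the saline arrays and between 9.45 and 9.79 on the ethanol arrays. That of the astrocyte markers lay between 9.50 and 9.82 on saline, so these levels alone do not identify the labelled tissue, cortex. The SD of all values on an array, a measure of array quality, had r = 0.17 and 0.14 with Fkbp5.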

How the data were processed

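Gene expression in medial prefrontal cortex was read on 66 Affymetrix arrays. The deposited table gives log2 levels. The submitters' processing notes name affy and RMA as the authors' tools, with versions not given in the sources used here. The batch of a single array is not analysed here. RMA equalises the distribution of values across arrays, so levels are relative, and no detection call was used. Array medians lay between 5.67 and 5.77, and the highest correlation between 2 arrays was 0.998. The number of arrays limits the precision.

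Of 45037 probe sets, 34945 had 1 gene symbol, 932 several and 9160 none; 34741 symbols were updated by Entrez identifier through RefSeq (GRCm38.p6). Probe sets with a mean below the 40th percentile (log2 5.10) were left out, and the brightest probe set stood for each gene (13196 genes; 13195 without Fkbp5). Tests were two-sided with limma 3.58.1 in R 4.3.3 (lmFit, eBayes), with Benjamini-Hochberg adjustment over all genes at 0.05; adjusted p values are limma's throughout. Permutation tests used scipy 1.17.1, exact for differences and with 100000 resamples for correlations, and figures matplotlib 3.10.9. The fits were tested on simulated data.

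The strains, genes and lists were chosen with earlier results of these data known. Genes were named by rule: the 12 highest and 12 lowest saline correlations, the 8 smallest p of the strain difference, genes past the threshold on the slope, the target and receptor lists, the 2 members of each other list with the largest ethanol difference, Glo1, and the 5 nearest genes on each side of Fkbp5. Cavin2 and Pnpla2 were named outside it, after their values were seen. Alternatives changed the filter, scaling, prior, weights, covariates, probe set, group size and strains.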

Additional observations from a re-analysis of the deposited data

Results flagged for a closer look

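Within the groups of 9 ethanol arrays, 6 of 32 tested gene and group combinations held an array whose gap to its neighbour was large for the range of its group by Dixon's criterion. Chance gives about 1 such array in 20 groups, and the combinations share arrays. BXD09 was the highest low strain for 3 genes: Fkbp5 at 8.96 (next 8.45), Slc2a1 at 10.38 (next 9.74) and Aff1 at 6.86 (next 6.26). BXD34 was the highest high strain for Aff1, at 6.85 (next 6.33). BXD33 was the lowest high strain for Eif2ak2, at 5.65 (next 5.76). BXD01 was the lowest low strain for Ankrd63, at 7.07 (next 7.33).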

How the results depend on the processing

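Ranked by the other Fkbp5 probe set, the ethanol difference of Fkbp5 reversed to -0.10 and the correlation of saline and ethanol Fkbp5 to -0.18; Zfp207 reversed to -0.00387 when strains were ranked on the ethanol and tested on the saline arrays. The cause was not tested. Leaving out each strain in turn, the Fkbp5 difference ran from 0.06 to 0.19, the correlation from 0.09 to 0.30, and the count of genes between high and low strains from 0 to 1. That count was 1 (Eif2ak2) without BXD09 or BXD33 and with all 27 ethanol arrays fitted. The count of 7 genes on the slope became 4 with a 60th percentile filter (fewer genes tested). It was 13 with median centring (11 positive, 2 negative) and 26 with array weights (19 and 7). The smallest size of correlation among the 7, 0.69, was reached by 9 genes on the ethanol arrays and by 5 on the saline arrays. Those 5 were other genes: Wipf3, Mfsd2a, Lfng, Rin2 and Lmcd1. Settings added after the data were seen were an excitatory neuron covariate (8), a myelin covariate (4) and leaving out BXD09, BXD34 and BXD39 (0 in limma). In the last, 451 of 13195 genes had an unadjusted p below 0.05, a share under 0.05. For the target list, leaving out the farthest arrays and using the other probe set were also added then. Leave-one-out counts ran from 2 (without BXD09) to 20 (without BXD02), with 3 without BXD34, 4 without BXD21, 11 without BXD31 or BXD27 and 12 without BXD11. Smim3 passed in 42 of 43 settings, Fbxw7 in 41, Slc2a1 in 40, Aff1 in 38, Pkp2 in 36, Vegfd in 33 and Postn in 20. The 43 include the main fit and 27 fits that each leave out 1 strain. They share most of their arrays and are not separate tests, and none of the 7 genes passed without BXD09, BXD34 and BXD39. Of the other values, 131 of the comparisons and 532 of single genes kept direction and side of the threshold, while 48 single gene values lost the call and 3 gained it. No paired analysis was possible because the high and low groups hold different strains, 1 array each. Dim genes near the filter (log2 5.10), such as Vegfd and Cebpd, may understate differences.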
